A study of Rattus norvegicus with 16 samples.

Results

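Aquaporins are membrane channels that let water cross the cell membrane along an osmotic gradient. Aqp3, Aqp7 and Aqp9 also pass glycerol and form the aquaglyceroporin branch of the family. In the distal colon, salt absorbed by the epithelium draws water with it, and aquaporins of the epithelium and the vessels provide paths for that water. White blood cells that enter the wall carry aquaporins of their own. The members described here were the 8 rat aquaporins Aqp1, Aqp3, Aqp4, Aqp5, Aqp7, Aqp8, Aqp9 and Aqp11, chosen by their RefSeq transcripts out of 15159 genes named on the arrays. They were measured by 10 probes of 30367. Aqp4 had 3 probes and every other member had 1.

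The samples were normal distal colon of 16 rats aged 97 days, all labelled as strain (ACIxF344)F1-Pirc, 4 in each of 4 groups, each hybridised to its own array. Pirc/+ rats carry 1 mutant allele of Apc, the tumor suppressor gene of the Wnt pathway, and rats with wild type Apc are called wildtype here; the genotype was taken from the genotype label, since the strain name is the same for both. In each genotype, 4 rats drank 4% dextran sodium sulfate (DSS), which injures the colonic epithelium, over days 40 to 47 and again over days 54 to 61, and 4 rats were untreated controls. The tissue was therefore taken 36 days after the end of DSS. The rats are numbered 11 to 26 as in the labels.

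All levels are log2 of the array signal relative to the 75th percentile of that array, so that 0 is the 75th percentile and each step of 1 is a factor of 2. A probe's level is read only against the same probe in other rats. Differences were tested with limma over all 30367 probes. A probe passed when its Benjamini-Hochberg adjusted p was 0.05 or less, and it was called when the change was also 2-fold or more. Where no rat of a group was well above background, its values were raised to the lowest level well above background on each array. The fold between group means is then given as at least that size. This bound leaves out the spread between rats, and some changes were smaller after another background correction. DSS-treated wildtype rat 26 stood apart from its group: its array correlated best with that of untreated wildtype rat 25 (r = 0.989 over 19433 probes), whereas each of the other 15 arrays was nearest to one of its own group. Each of the 4 array columns on a slide held 1 group, so that array column and group cannot be told apart.

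Aqp3 and Aqp9 were the members that rose after DSS in both genotypes. The bases before their annotated start sites are therefore shown, from the RefSeq promoters of build GRCr8, and both genes lie on the minus strand. Capitals mark matches, on either strand, to the TATA box, spelled TATAAA, or to the GC box, spelled GGGCGG.

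Aqp3, chr5:61040684-61040933: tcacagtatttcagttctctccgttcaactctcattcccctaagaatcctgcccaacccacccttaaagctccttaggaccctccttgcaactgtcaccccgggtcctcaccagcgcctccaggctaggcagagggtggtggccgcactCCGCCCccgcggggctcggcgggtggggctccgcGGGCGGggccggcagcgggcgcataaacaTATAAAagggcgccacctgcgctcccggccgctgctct
Aqp9, chr8:80718189-80718438: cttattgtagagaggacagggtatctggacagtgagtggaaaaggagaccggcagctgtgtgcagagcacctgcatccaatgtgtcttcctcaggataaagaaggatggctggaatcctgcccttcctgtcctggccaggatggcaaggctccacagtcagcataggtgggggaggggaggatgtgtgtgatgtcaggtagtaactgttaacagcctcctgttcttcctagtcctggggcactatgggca

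The Aqp3 sequence held 1 TATA box, 38 bases before the start site, and 2 GC boxes, and the Aqp9 sequence held neither. Of 33469 rat promoters of 250 bases, 12.9% held the TATA letters and 30.5% the GC box letters. The letters of AP-1 (TGANTCA, in 6.34% of promoters), the NF-kB motif (4.36%), C/EBP (TTNNGNAA, 37.2%), STAT (TTCNNNGAA, 7.67%), TCF/LEF (CTTTGAT, 3.15%) and the core of the cAMP response element (TGACG, 18.2%) were searched on both strands and were in neither window. Promoters were at hand for 7 of the 8 members, with 2 for Aqp4 and none for Aqp7. Outside Aqp3 and Aqp9, 1 Aqp4 promoter held the TCF/LEF letters, the other Aqp4 promoter held the C/EBP letters, and Aqp1 held a TATA box. Aqp5 held 2 GC boxes, and Aqp1, Aqp11 and 1 of the Aqp4 promoters held 1 each.

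After DSS, Aqp3 rose in both genotypes, and it was highest in the DSS-treated Pirc rats. Aqp3 is the glycerol and water channel of the basolateral membrane of colonic surface cells, and it is also strongly expressed in stratified epithelia. In untreated wildtype rats 13, 17, 21 and 25 its level was 1.30, -2.79, -0.85 and -2.34. In DSS-treated wildtype rats 14, 18, 22 and 26 it was 3.06, 2.86, 2.63 and 1.64. Every DSS-treated wildtype rat lay above every untreated one, and rat 26 lay nearest to the untreated rats. In untreated Pirc rats 11, 15, 19 and 23 Aqp3 was at 0.94, 0.15, 1.43 and 2.27. In DSS-treated Pirc rats 12, 16, 20 and 24 it was at 4.93, 4.65, 5.05 and 4.61, a spread of 0.21 (SD, n = 4) against 1.84 in untreated wildtype rats. The DSS-treated Pirc rats thus formed the tightest and highest group, and the untreated wildtype rats the widest.

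Aqp3 rose after DSS by 3.72 in wildtype rats (SE 0.70, 13.1-fold, limma adjusted p = 0.0097) and by 3.61 in Pirc rats (SE 0.70, 12.2-fold, adjusted p = 0.00311). Over both genotypes the rise was 3.67 (SE 0.49, adjusted p = 0.000154). The rise differed between the genotypes by -0.10 (95% confidence interval -2.21 to 2.0, adjusted p = 0.979), an interval that leaves room for a difference of more than a factor of 4 either way. The rise in wildtype rats lost its call when only those 2 groups entered the fit (adjusted p = 0.0683).

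Aqp3 was also higher in Pirc than in wildtype rats after DSS, by 2.26 (SE 0.70, 4.80-fold, adjusted p = 0.036), and the 2 groups did not overlap. In untreated rats the difference was 2.37 (SE 0.70, adjusted p = 0.272), and the groups overlapped because untreated wildtype rat 13 lay within the Pirc range. Over both treatments Aqp3 was 2.32 higher in Pirc rats (SE 0.49, adjusted p = 0.00658). The call after DSS was lost on leaving out any 1 of the DSS-treated rats 12, 14, 18, 20, 22, 24 and 26, with values from 1.96 to 2.44 over all rats left out in turn (adjusted p up to 0.0923), and without moderation of the variances (adjusted p = 0.0571). It was also lost without rats 12 and 26 together (1.92, limma adjusted p = 0.154).

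Aqp9 also rose after DSS in both genotypes, from a dim start. Aqp9 is a glycerol, urea and water channel known from hepatocytes and from neutrophils and other white blood cells. In untreated wildtype rats 13, 17, 21 and 25 its level was -7.98, -8.64, -8.73 and -7.95, and the probe was not well above background in any of them. In untreated Pirc rats 11, 15, 19 and 23 it was -6.90, -8.61, -8.21 and -8.31, well above background in rat 11 alone. In DSS-treated wildtype rats 14, 18, 22 and 26 it was -4.42, -5.57, -4.14 and -7.10, and in rat 26 it was not well above background. In DSS-treated Pirc rats 12, 16, 20 and 24 it was -5.50, -1.83, -2.46 and -3.44. All 4 treated Pirc rats lay above the untreated Pirc rats, with rat 12 the lowest of them, and in wildtype rats the probe was well above background in 3 of 4 treated rats and in none of the untreated ones.

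In Pirc rats the rise of Aqp9 after DSS was 4.70 (SE 0.73, adjusted p = 0.000779), and it passed under all 29 alternatives in which it was recomputed, the smallest value being 1.84 after normexp background correction. The size of this rise rests on an untreated group in which 1 of 4 rats was well above background, and it was 3.73 (Aqp9, adjusted p = 0.00147) with dim values set to a common floor. In wildtype rats it was at least 3.05-fold between group means, because the untreated group gave only an upper bound (measured difference 3.02, SE 0.73, limma adjusted p = 0.0336). That call was lost without any 1 of rats 13, 14, 17, 18, 21, 22 and 25 (adjusted p up to 0.123), with dim values set to a common floor (1.72, adjusted p = 0.211), after normexp (0.73, adjusted p = 0.486), with only the wildtype groups in the fit (adjusted p = 0.0524), without moderation of the variances (adjusted p = 0.065) and with each combination of slide and row as a block (adjusted p = 0.0577). Over both genotypes the rise was 3.86 (SE 0.52, adjusted p = 0.000153), against 8 untreated rats of which 1 was well above background, and it was 2.72 with the floor (adjusted p = 0.000859) and 1.29 after normexp (adjusted p = 0.00308). After DSS, Aqp9 was 2.0 higher in Pirc than in wildtype rats (SE 0.73, 95% confidence interval 0.43 to 3.56, adjusted p = 0.073), and it passed without DSS-treated Pirc rat 12 (2.73, adjusted p = 0.016) and without rats 12 and 26 together. Over the other alternatives the value went down to 0.87 after normexp (adjusted p = 0.142), and the adjusted p up to 0.199. The difference between the DSS effects was 1.68 (95% confidence interval -0.54 to 3.89, adjusted p = 0.591).

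Aqp7, the aquaglyceroporin through which adipocytes release glycerol, was dim and did not pass in any comparison. It was well above background in 8 of 16 rats: 1 untreated wildtype, 2 untreated Pirc, 2 DSS-treated wildtype and 3 DSS-treated Pirc rats. Its levels in DSS-treated Pirc rats 12, 16, 20 and 24 were -6.18, -4.66, -8.39 and -6.52, and in rat 20 the probe was not well above background. Over both genotypes it was 1.25 higher after DSS (SE 0.48, adjusted p = 0.0898), and it passed without DSS-treated Pirc rat 20 (1.58, adjusted p = 0.0168), without DSS-treated wildtype rat 22 (1.49, adjusted p = 0.0389), with slide as a block (adjusted p = 0.0212) and with each combination of slide and row as a block (adjusted p = 0.0136). In the other direction it was 0.39 after normexp (adjusted p = 0.196) and 0.78 with the floor (adjusted p = 0.132).

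Each of the 2 slides held 2 rats of every group, and the DSS effects kept their direction on both. Aqp3 differed on the first and second slide by 4.25 and 2.98 in Pirc rats and by 3.71 and 3.73 in wildtype rats. Aqp9 differed by 4.09 and 5.31 in Pirc rats and by 3.32 and 2.72 in wildtype rats.

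**Figure D1:**
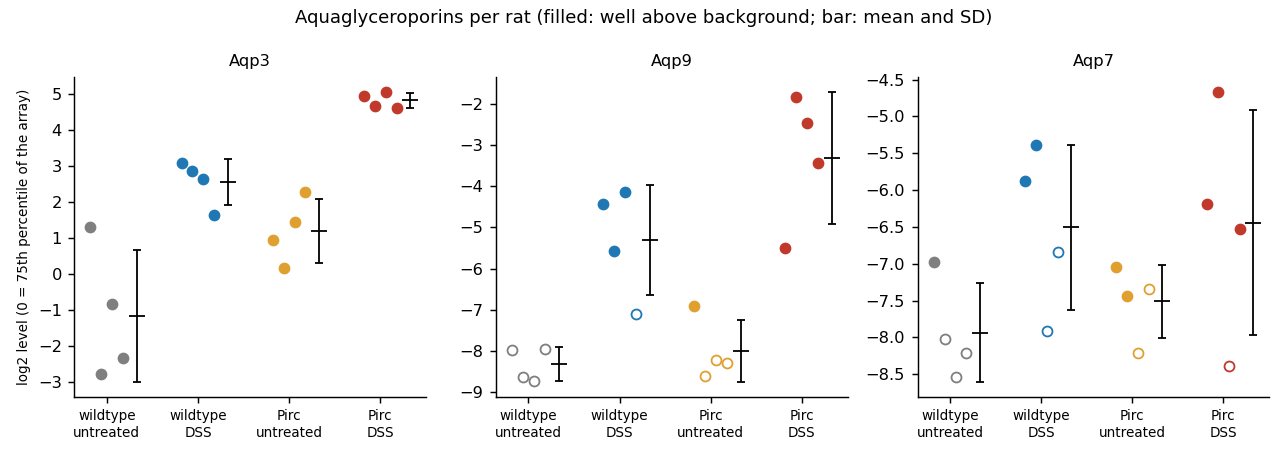
Level of Aqp3, Aqp9 and Aqp7 in each rat (y axis, log2 relative to the 75th percentile of the array) by group (x axis). Filled points are well above background, open points are not, and the black bar is the mean with its SD (n = 4); the 4 DSS-treated Pirc rats lie between 4.61 and 5.05 for Aqp3, above all other rats.

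In bulk tissue, more cells of a type and more RNA per cell cannot be told apart, and markers of other cell types moved with both genes. The neutrophil markers (6 of 7 measured, among them Csf3r, Cxcr2, S100a8 and S100a9) had a summed level, in multiples of the 75th percentile, of 0.735 to 1.04 in the untreated wildtype group, 1.44 to 2.05 in untreated Pirc, 1.44 to 4.86 in DSS-treated wildtype and 9.81 to 38.6 in DSS-treated Pirc rats. S100a8 and S100a9, the calprotectin subunits, rose after DSS in Pirc rats by 4.58 and 3.95 (adjusted p = 0.000277 and 0.00017). These sums add levels on the linear scale, so that bright genes weigh most. In DSS-treated Pirc rats S100a8 and S100a9 had mean log2 levels of 2.91 and 3.7. Of the 6 neutrophil probes 3 were called higher after DSS in Pirc rats (5.51% of all probes) and 3 in wildtype rats (2.37%). With each rat left out the wildtype count was 0 to 3. After DSS 2 of 6 were called higher in Pirc than in wildtype rats, against 3.1% of all probes. In wildtype rat 26, in which Aqp9 was not well above background, the neutrophil sum was 1.44, the lowest of its group. In DSS-treated Pirc rat 12, lowest in its group for Aqp9, the sum was 9.81, also the lowest of its group. The match was not particular to neutrophil markers. The sum of squamous epithelium and urothelium markers was likewise the lowest of its group in rat 26 (0.269) and in rat 12 (11.6).

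Markers of squamous epithelium and urothelium (6 of 8 measured, including Krt5, Krt14 and Sprr3) summed to between 0.207 and 0.352 in all 8 untreated rats. Their sum was 1.83, 3.94, 30.2 and 0.269 in rats 14, 18, 22 and 26, the DSS-treated wildtype group, and between 11.6 and 58.6 in DSS-treated Pirc rats. All 7 of their probes rose after DSS in Pirc rats, where 8.14% of all probes passed upward. In wildtype rats 3 of 7 passed upward, Krt13 and Sprr3 among them, where 2.94% of all probes did, and both lost this on leaving out any 1 of wildtype rats 13, 14, 17, 18, 21, 22 and 25 (adjusted p up to 0.118), and Sprr3 also without any 1 of untreated Pirc rats 11, 15, 19 and 23. Within the DSS-treated wildtype rats the squamous sum, on the linear scale, spanned 0.269 to 30.2. Aqp3 spanned 1.64 to 3.06 on the log2 scale, which is 311% to 836% of the 75th percentile. Rat 22 with the highest squamous sum had the third highest Aqp3. Rat 26, with a squamous sum within the range of untreated rats, had Aqp3 at 1.64, above the untreated wildtype rats. Macrophage markers (6 of 6 measured, Cd68, Cd163 and Csf1r first) summed to 9.68 to 12.6 in untreated wildtype, 11.6 to 15.2 in untreated Pirc, 13.1 to 25 in DSS-treated wildtype and 18.7 to 23.7 in DSS-treated Pirc rats. Of their 7 probes 3 passed upward after DSS in Pirc rats (8.14% of all probes) and 2 in wildtype rats (2.94%). Lyz2 and Cd68 rose in both genotypes, while 4 probes in Pirc rats and 5 in wildtype rats did not pass. The part of these cells in the rise of Aqp3 and Aqp9 was not tested. Goblet cell markers (6 of 7 measured, Tff3 and Fcgbp among them) summed to 206 to 273 in DSS-treated wildtype and 114 to 247 in DSS-treated Pirc rats, smooth muscle markers (6 of 6 measured, Myh11, Acta2 and Des first) to 0.882 to 10.9 and 0.619 to 3.42, and crypt base and dividing cell markers (4 of 6 measured, Lgr5 and Ascl2 among them) to 0.894 to 2.04 and 1.89 to 3.37. In untreated wildtype and Pirc rats the goblet sums were 205 to 293 and 257 to 295. Those of smooth muscle were 0.991 to 6.64 and 1.01 to 1.41, and those of crypt base and dividing cells 1.08 to 2.17 and 1.37 to 2.01. The smooth muscle sum was highest in DSS-treated wildtype rat 26 (10.9) and next highest in untreated wildtype rat 25 (6.64), whose array was nearest to it. Red blood cell markers summed to 61.8 in rat 26 and 35.8 in rat 25, with 44.7 in DSS-treated wildtype rat 14. The part of muscle and blood in the likeness of the arrays of rats 25 and 26 was not tested.

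**Figure D2:**
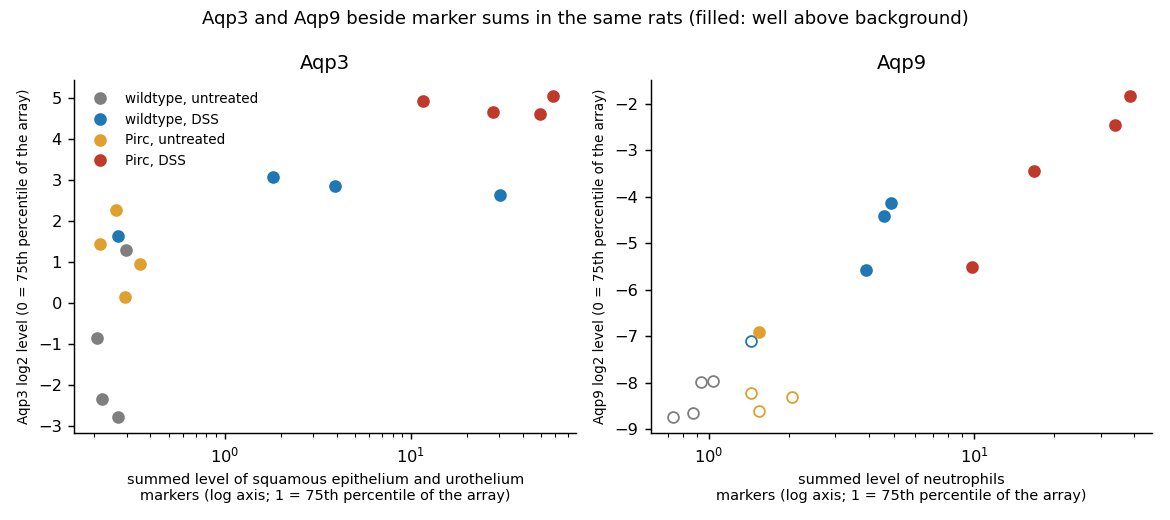
Left, Aqp3 level (y axis, log2) against the summed level of squamous and urothelial markers (x axis, log scale); right, Aqp9 level against the summed level of neutrophil markers, 1 point per rat, coloured by group and open where the aquaporin was not well above background. Rat 26, the DSS-treated wildtype point at a squamous sum of 0.269 and a neutrophil sum of 1.44, lies beside the untreated rats on both x axes.

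Over the whole family, 3 of 10 probes were called for DSS in Pirc rats, against 7.46% of all probes tested. For DSS in wildtype rats 2 of 10 were called, against 2.77% of all. All of these calls were upward, where 5.51% (Pirc rats) and 2.37% (wildtype rats) of all probes were called upward: Aqp3 and Aqp9 in both genotypes, and 1 Aqp4 probe in Pirc rats. The median change of the 10 probes was 0.88 in Pirc rats (0.04 over all probes) and 0.02 in wildtype rats (0.09 over all probes). Over both genotypes 2 of 10 were called, against 5.99% of all probes. Between untreated Pirc and wildtype rats no aquaporin passed, as was the case for all 30367 probes (0% called), although 1 aquaporin probe, that of Aqp3, and 3103 probes in all were at an unadjusted p under 0.05. After DSS, 3 of 10 probes were called higher in Pirc than in wildtype rats, 1 for Aqp3 and 2 for Aqp4, against 5.47% of all probes called in either direction and 3.1% called higher. Over both treatments 2 of 10 were called, against 2% of all probes.

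**Figure D3:**
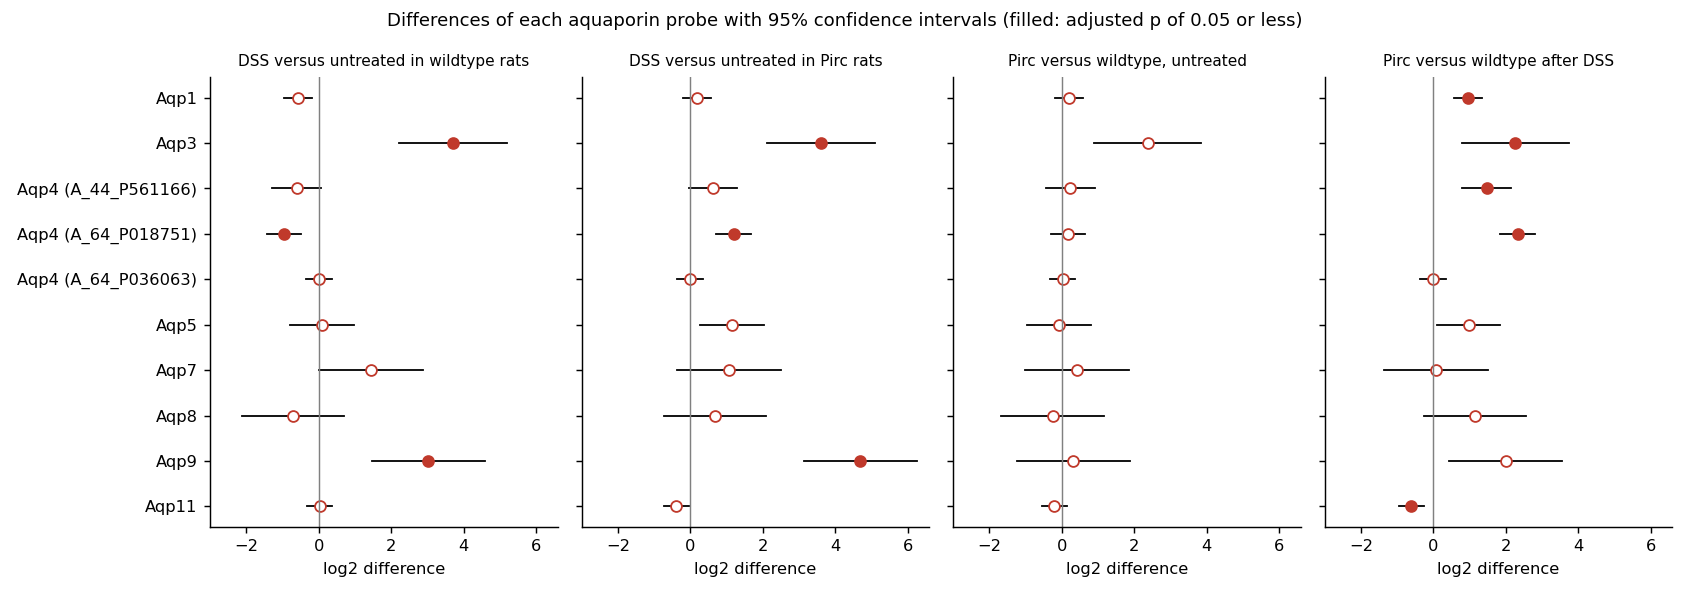
Difference of each of the 10 aquaporin probes (y axis) in 4 comparisons, as log2 of the first group over the second (x axis), with limma's 95% confidence interval. Filled points have an adjusted p of 0.05 or less; Aqp3 lies above 3 for DSS in both genotypes, the Aqp9 point in wildtype rats is measured against a group at background, and the 3 Aqp4 probes differ from each other after DSS.

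Aqp4 is the water channel of glial endfeet, and in the gut it is known from enteric glia and from basolateral membranes of epithelial cells. Its 3 probes, all annotated to the same transcript, did not move alike. The dimmest, A_64_P018751, was at -6.69, -6.38, -6.78 and -6.04 in untreated wildtype rats 13, 17, 21 and 25, and at -7.49, -7.24, -7.80 and -7.17 in DSS-treated wildtype rats 14, 18, 22 and 26, in none of which it was well above background. In untreated Pirc rats 11, 15, 19 and 23 it was at -6.24, -6.10, -6.18 and -6.68, and in DSS-treated Pirc rats 12, 16, 20 and 24 at -5.29, -4.85, -5.55 and -4.70. DSS-treated Pirc rats lay above and DSS-treated wildtype rats below the untreated rats of their genotype, with no overlap in either.

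This probe rose after DSS in Pirc rats by 1.20 (SE 0.22, 2.30-fold, adjusted p = 0.00248), and with the 3 probes averaged the change of Aqp4 was 0.60 (adjusted p = 0.0551), with 0.59 for this probe after normexp, which passed. In wildtype rats it fell by 0.96 (SE 0.22, limma adjusted p = 0.0284), at least 1.18-fold by the bound that background sets. The fall did not pass without any 1 of rats 14, 17, 18, 22 and 25 (adjusted p up to 0.0929) or with a common floor (-0.24, adjusted p = 0.725). The difference between the DSS effects was 2.15 (SE 0.32, adjusted p = 0.0178), so that it was the aquaporin probe called there, 1 of 10 against 0.0428% of all probes. That difference did not pass without any 1 of untreated rats 11, 17 and 25 (adjusted p up to 0.0642), with a common floor (1.36, adjusted p = 0.095), after normexp background correction (0.66, adjusted p = 0.492), or with the 3 probes averaged (1.12, adjusted p = 0.159). After DSS it was at least 3.06-fold higher in Pirc than in wildtype rats by the same bound (measured difference 2.33, SE 0.22, adjusted p = 8.07e-05). After normexp, to which that bound does not apply, the difference was 0.45 (adjusted p = 0.105). Over both treatments it was 1.25 higher in Pirc rats (SE 0.16, adjusted p = 0.000622), and after normexp 0.13 (adjusted p = 0.429).

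The brighter probe A_44_P561166, well above background in all 16 rats, had the same order of groups. It was at -2.31, -2.60, -2.97 and -2.15 in untreated wildtype rats, -3.16, -3.10, -3.77 and -2.42 in DSS-treated wildtype rats, -2.50, -2.17, -1.94 and -2.47 in untreated Pirc rats, and -2.12, -1.33, -2.21 and -0.90 in DSS-treated Pirc rats. The treated and untreated rats overlapped in both genotypes, and neither DSS effect passed (0.63, adjusted p = 0.223 in Pirc rats and -0.61, adjusted p = 0.367 in wildtype rats). After DSS the 2 genotypes did not overlap, and Pirc rats were higher by 1.47 (SE 0.32, 2.77-fold, adjusted p = 0.00696; 0.0503 with only these groups in the fit). Over both treatments they were higher by 0.85 (SE 0.22, adjusted p = 0.0177). The difference between its DSS effects was 1.24 (SE 0.45, adjusted p = 0.346).

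The probe A_64_P036063, also well above background in all 16 rats, stayed between -3.34 and -2.60 in every group. Its difference between genotypes after DSS was -0.01 (95% confidence interval -0.36 to 0.35, adjusted p = 0.978), so that changes of the size seen with the other probes lay outside its interval. Over the 16 rats the levels of A_44_P561166 and A_64_P018751 correlated at r = 0.91, and the flat probe correlated with them at 0.26 and 0.14, as a description of arrays that share groups and scaling. Probe sequences were not used here, so where each probe lies in the transcript was not examined.

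**Figure D4:**
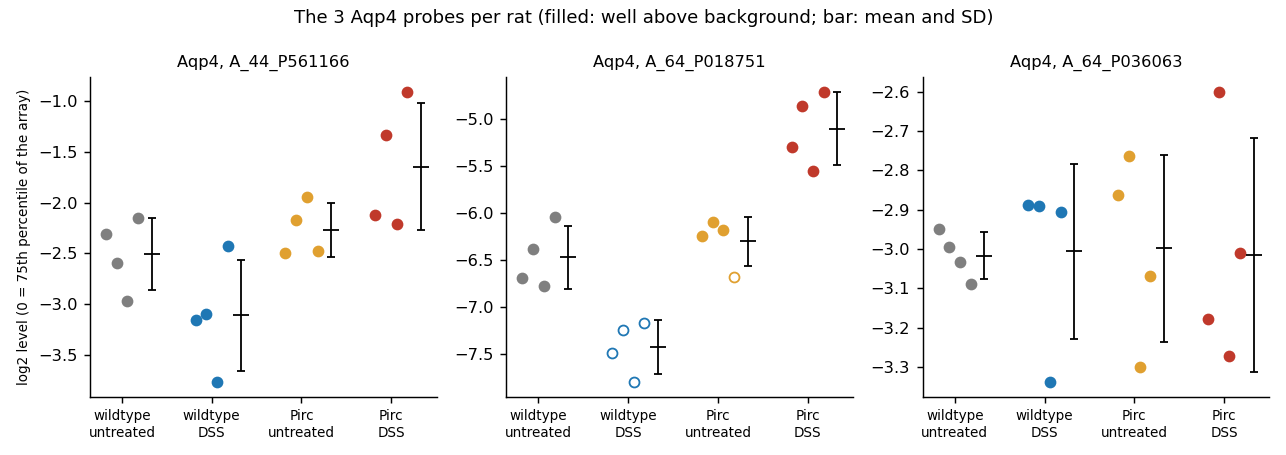
Level of each of the 3 Aqp4 probes in each rat (y axis, log2 relative to the 75th percentile of the array) by group (x axis), filled where well above background, with mean and SD (n = 4). A_44_P561166 and A_64_P018751 are highest in DSS-treated Pirc and lowest in DSS-treated wildtype rats, and A_64_P036063 stays between -3.34 and -2.60.

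Aqp1, the water channel of red blood cells and of capillary endothelium, differed between the genotypes after DSS. It was at -0.82, -0.31, -1.0 and -0.41 in untreated wildtype rats and at -1.31, -1.47, -1.23 and -0.81 in DSS-treated wildtype rats 14, 18, 22 and 26. In untreated Pirc rats it lay between -0.50 and -0.37, and in DSS-treated Pirc rats 12, 16, 20 and 24 at -0.51, -0.38, 0.00 and -0.12. The DSS-treated genotypes did not overlap, and Pirc rats were higher by 0.95 (SE 0.18, 1.93-fold, adjusted p = 0.00382), just under a factor of 2. Within genotypes the DSS effects did not pass, with -0.57 in wildtype rats (adjusted p = 0.101) and 0.19 in Pirc rats (adjusted p = 0.573). Over both treatments Aqp1 was 0.57 higher in Pirc rats (SE 0.13, adjusted p = 0.00812). In untreated rats the genotype difference was 0.19 (adjusted p = 0.787). The difference between the DSS effects was 0.76 (SE 0.25, adjusted p = 0.321) and did not pass.

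Endothelial markers (6 of 8 measured, Tek not well above background on any array) summed to 0.532 to 0.903 in DSS-treated wildtype and 0.773 to 1.03 in DSS-treated Pirc rats, ranges that overlapped. Their sum was 0.303 to 0.588 in untreated rats of both genotypes. After DSS 4 of their 6 probes rose in Pirc rats (8.14% of all probes passed upward) and 1 in wildtype rats (2.94%). Red blood cell markers (3 of 5 measured, Hbb among them) summed to 5.62 to 61.8 in DSS-treated wildtype and 3.63 to 30.2 in DSS-treated Pirc rats, and none of their 4 probes passed between genotypes. The part of these cells in the Aqp1 difference was not tested.

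Aqp11, an intracellular member of the family, was lower in Pirc than in wildtype rats after DSS. It was at 0.04, 0.02, -0.11 and -0.40 in untreated wildtype rats, between -0.18 and 0.06 in DSS-treated wildtype rats, between -0.50 and -0.19 in untreated Pirc rats, and at -0.62, -0.36, -1.14 and -0.68 in DSS-treated Pirc rats 12, 16, 20 and 24. After DSS the genotypes did not overlap, and the level in Pirc rats was diminished, with a difference of -0.61 (SE 0.16, adjusted p = 0.0171). The median over all probes in this comparison was -0.11. The difference did not pass without DSS-treated rats 20 or 22 (adjusted p = 0.0539 and 0.051), with only these groups in the fit (adjusted p = 0.0829), or when arrays were scaled to the median of spots above background (-0.47, adjusted p = 0.111). Over both treatments it was -0.41 (SE 0.11, adjusted p = 0.0227), and under that scaling -0.28 (adjusted p = 0.178). In untreated rats the genotype difference of Aqp11 was -0.20 (adjusted p = 0.712). The difference between its DSS effects was -0.41 (SE 0.22, adjusted p = 0.545) and did not pass.

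Aqp8, the water and ammonia channel of surface colonocytes, did not pass in any comparison. In DSS-treated wildtype rats 14, 18, 22 and 26 it was at -1.16, -2.67, -1.33 and 1.32, a span wider than that of any other group, with rat 26 above all other rats. In DSS-treated Pirc rats it was at 0.01, 0.58, -1.03 and 1.20, and the 8 untreated rats lay between -0.90 and 0.27. Its difference between Pirc and wildtype rats after DSS was 1.15 (SE 0.66, 95% confidence interval -0.26 to 2.55, adjusted p = 0.259). Without rat 26 it was 1.91 (adjusted p = 0.0194), and the 3 remaining wildtype rats were then all below the 4 Pirc rats. The DSS effect was -0.72 in wildtype rats (adjusted p = 0.678) and 0.68 in Pirc rats (adjusted p = 0.585), and the difference between them was 1.40 (95% confidence interval -0.59 to 3.39, adjusted p = 0.617).

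Aqp5, the apical water channel of secretory glands, was dim and was well above background in 15 of 16 rats. In DSS-treated Pirc rats it was at -5.37, -4.52, -4.24 and -5.18, above the untreated Pirc rats at -5.81, -5.71, -6.33 and -6.09. Although these groups did not overlap, the difference of 1.15 (SE 0.41, adjusted p = 0.0762) did not pass. It passed without DSS-treated wildtype rat 22 (adjusted p = 0.0447), without rat 26 (adjusted p = 0.0452), without rats 12 and 26 together (adjusted p = 0.0378), or when the 2 Pirc groups were fitted alone (adjusted p = 0.039). Over the other alternatives it went down to 0.56 after normexp (adjusted p = 0.111), and the adjusted p rose to 0.217 without DSS-treated Pirc rat 20. In wildtype rats the difference was 0.10 (adjusted p = 0.932), with DSS-treated rats between -6.82 and -4.74.

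**Figure D5:**
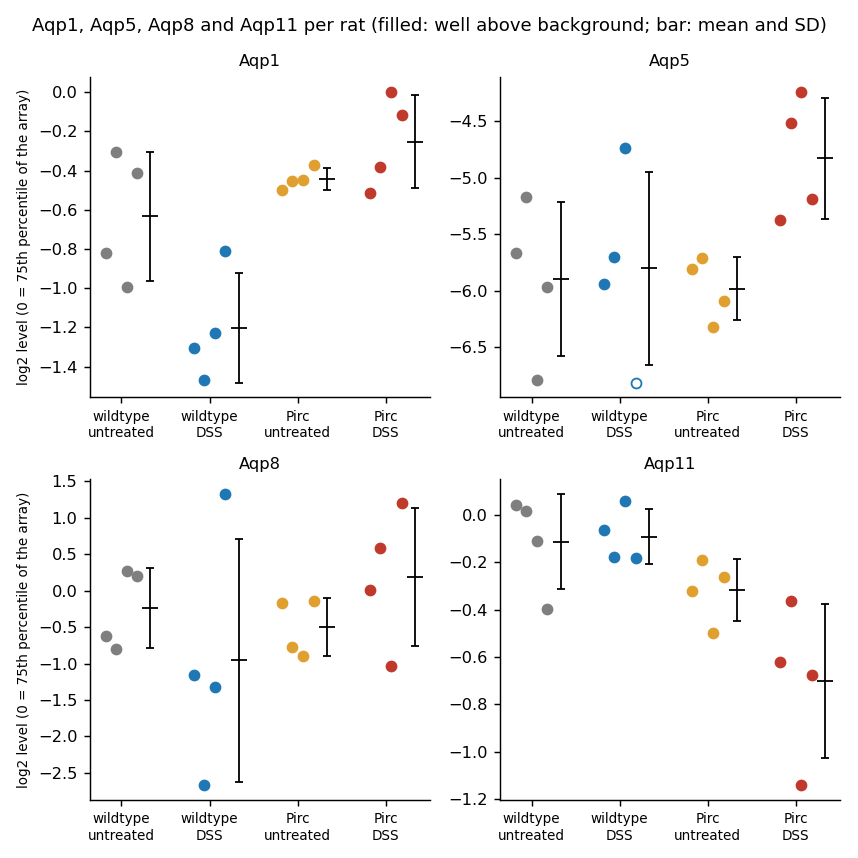
Level of Aqp1, Aqp5, Aqp8 and Aqp11 in each rat (y axis, log2 relative to the 75th percentile of the array; each panel has its own scale) by group (x axis), filled where well above background, with mean and SD (n = 4). For Aqp1 and Aqp11 the DSS-treated genotypes do not overlap, and for Aqp8 the DSS-treated wildtype rats span -2.67 to 1.32.

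Of 6 further family members listed, Aqp2, Aqp6, Aqp12a and Mip had a probe and none was called. Aqp12a was lower in Pirc than in wildtype rats after DSS by a difference of -0.51 (adjusted p = 0.0441), under a factor of 2. It did not pass without any 1 of rats 11, 12, 13, 14, 15, 17, 18, 19, 20 and 22 (adjusted p up to 0.134).

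Genes whose levels followed the called aquaporins closely over the 16 rats were sought among 12181 named probes well above background on every array. For Aqp3 these were Adgrg5, Aif1 and Clca4 (Pearson r = 0.941, 0.936 and 0.935). For Aqp9 they were Usp6nl, S100a8 and Klk11 (r = 0.964, 0.957 and 0.956). For Aqp4 they were Slc39a8, Gcg and Tead2 with probe A_44_P561166 (r = 0.888, 0.871 and 0.858), and Defa9 and Tifa with probe A_64_P018751 (r = 0.913 and 0.904). These values describe arrays that share groups.

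Some genes of salt transport, which sets the osmotic gradient that aquaporins serve, were lower in DSS-treated Pirc rats, and most of the list did not pass. Of 26 probes for 19 genes, 5 fell after DSS in Pirc rats (6.51% of all probes passed downward), none rose and 21 did not pass, with a median of -0.52. The largest called changes were in Slc26a3, the apical chloride and bicarbonate exchanger (-1.72, adjusted p = 0.00268), Sgk1, a kinase induced by aldosterone (-1.17, adjusted p = 0.00362), and Nr3c2, the mineralocorticoid receptor (-1.01, adjusted p = 0.000521). In wildtype rats none of the 26 passed after DSS, and no probe of the list passed for the difference between the DSS effects. Between Pirc and wildtype rats after DSS 7 of 26 were lower (8.76% of all probes passed downward). Of these, 6 were lower by a factor of 2 or more, against 5.47% of all probes called in either direction. Among them were Slc26a3 at -2.25 (adjusted p = 0.000932), Sgk1 at -1.78 (adjusted p = 0.000494), the sodium-hydrogen exchanger Slc9a2 at -1.66 (adjusted p = 0.000494) and the sodium channel subunit Scnn1a at -1.47 (adjusted p = 0.00162). In the same comparison Aqp3 and 2 Aqp4 probes were higher. Surface colonocyte markers (7 of 7 measured, Car1, Car4 and Slc26a3 first, with Car4 and Slc26a3 also in the salt list) summed to 351 to 454 in DSS-treated wildtype and 160 to 279 in DSS-treated Pirc rats. In untreated rats the sums were 299 to 403 in wildtype and 198 to 318 in Pirc rats, so the ranges of treated and untreated Pirc rats overlapped. Of their 8 probes 4 were called lower in Pirc than in wildtype rats after DSS, against 5.47% of all probes called in either direction. The markers of all gut epithelium (6 of 6 measured, Epcam, Cdh1 and Krt8 first) summed to 270 to 296 in DSS-treated wildtype and 223 to 241 in DSS-treated Pirc rats. After DSS 4 of 6 probes were lower in Pirc rats (8.76% of all probes passed downward), none by a factor of 2. In untreated rats the sums were 251 to 276 in wildtype and 225 to 271 in Pirc rats. The part of these cells in the salt transport differences was not tested.

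Of 16 probes for 14 genes of hormone and cyclic nucleotide signals that act on water secretion, 4 fell (6.51% of all probes passed downward) and 1 rose (8.14% upward) after DSS in Pirc rats, all by less than a factor of 2, and none passed in wildtype rats. Between Pirc and wildtype rats after DSS 4 were lower (8.76% of all probes). Guca2a, the guanylin gene, was the one called (-1.42, adjusted p = 0.000432), 1 of 16 against 5.47% of all probes called in either direction. Both probes of its receptor Gucy2c were lower too, by differences of -0.50 and -0.46 (adjusted p = 0.0341 and 0.0182), the first losing this without any 1 of DSS-treated rats 12, 16, 20, 22 and 26 (adjusted p up to 0.105) and the second without rat 20 (adjusted p = 0.0625).

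Of 12 probes for 10 genes of glycerol and triglyceride handling, 1 was called after DSS in each genotype. Over all probes 7.46% were called in Pirc rats and 2.77% in wildtype rats. The called gene was in both cases Dgat2, which makes triglyceride. It rose by 2.90 in Pirc rats (SE 0.36, adjusted p = 0.000196) and by 1.70 in wildtype rats (SE 0.36, limma adjusted p = 0.0183). The rise of Dgat2 in wildtype rats did not pass without any 1 of rats 14, 18 and 21 (adjusted p = 0.0765, 0.0644 and 0.0516) or with only the wildtype groups in the fit (adjusted p = 0.0842). Gk, the kinase that phosphorylates glycerol, was lower by less than a factor of 2 in both (-0.53 and -0.55, adjusted p = 0.0154 and 0.0327), and the other 10 probes did not pass. Gk did not pass in Pirc rats without rat 11 (adjusted p = 0.0507), or in wildtype rats without any 1 of rats 13, 14, 17, 18, 21 and 25 (adjusted p up to 0.119). Adipocyte markers (5 of 6 measured, Adipoq and Cidec among them) summed to between 2.32 and 7.19 in all groups. Fabp4 rose after DSS in both genotypes (5.18 and 4.20, adjusted p = 0.000356 and 0.00592) and Adipoq in Pirc rats (1.98, adjusted p = 0.0038), while Pck1 fell in Pirc rats (-2.13, adjusted p = 0.00964). The adipocyte sum adds linear levels, so it weighs the bright Pck1 and hides members that moved in opposite directions. In untreated wildtype rats Pck1 averaged 2.14, against -1.92 for Adipoq and -6.0 for Fabp4. Of 7 probes for 6 other small solute channels, the ammonia channel Rhcg rose after DSS in Pirc rats at least 51.7-fold, because it was not well above background in any untreated rat (measured difference 7.01, SE 1.23, adjusted p = 0.00172). In DSS-treated wildtype rats Rhcg was well above background in 3 of 4, and by the same bound at least 4.37-fold higher than in untreated ones. It did not pass in wildtype rats, and the bound takes no account of the spread between them. One of 2 probes of the urea channel Slc14a2 was lower in Pirc rats after DSS than in untreated Pirc rats (-1.40, adjusted p = 0.00811; -0.36 after normexp, adjusted p = 0.31) and than in DSS-treated wildtype rats (-1.99, adjusted p = 0.00154), and its other probe was not well above background on any array.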

How the data were processed

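RNA of normal distal colon from 16 rats was hybridised to 1-colour Agilent rat arrays. The deposited files hold spot intensities from Agilent Feature Extraction 10.7.3.1, per the file headers, with processed signal, median signal and background, and flags for outlier spots and for spots well above background. The submitters' processing notes name Partek. Control spots (4259) were left out, and log2 of the processed signal was scaled to the 75th percentile of each array (875 to 2194 intensity units). Between 71.1% and 80.3% of spots were well above background and none was saturated, and the number of arrays limits the precision. Spots of a probe were averaged without outlier-flagged spots. Of 30367 probes, 18006 were named through RefSeq (GRCr8), covering 15159 genes.

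A model with 1 mean per group was fitted to all 16 arrays with limma 3.58.1 in R 4.3.3, with Benjamini-Hochberg adjustment over all probes, and was tested on simulated data. The threshold of adjusted p of 0.05 or less and a factor of 2 follows the study. Every aquaporin probe is described. Also named are the 3 genes nearest in pattern to each called probe, up to 4 called members of each gene list with the largest changes, and the first 3 symbols of a marker list with up to 2 called members. Markers that moved with an aquaporin are also named. The members and gene lists were chosen with earlier results of these data known, and the promoter motifs after the results. The labels do not say whether rats shared litters. One gene near in pattern to Aqp4 and the summed markers of enteric glia and neurons are not reported here.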

Additional observations from a re-analysis of the deposited data

Results flagged for a closer look

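Aqp4 probe A_64_P036063 read -3.34 in DSS-treated wildtype rat 22, apart from the other 3 rats of its group, of which the nearest was at -2.91 and the farthest at -2.89. The gap was 0.959 of the group's range, above Dixon's critical value for 4 samples at the 95% level. Of 40 groups of 4 examined this was the one marked, and chance marks about 2 in 40.

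Aqp4 probe A_64_P018751 differed between the genotypes in its DSS effect by 2.15 on the log2 scale (limma interaction term, adjusted p = 0.0178), with higher levels after DSS in Pirc rats and lower levels in wildtype rats. Of the other 2 probes of the gene, A_44_P561166 differed by 1.24 (adjusted p = 0.346) and A_64_P036063 by -0.03 (adjusted p = 0.977).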

How the results depend on the processing

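The calls of Aqp3 and Aqp9 for DSS in Pirc rats and over both genotypes passed under all 29 alternatives in which each was recomputed, with changes of 3.26 to 3.97 and 1.84 to 5.43 in Pirc rats and 3.40 to 4.08 and 1.29 to 4.53 over both. The numbers of called aquaporin probes for DSS in Pirc rats (3), for DSS over both genotypes (2) and for untreated Pirc against wildtype rats (0) stayed within a factor of 1.5 of these, or at 0, in every alternative. With each rat left out in turn the counts were 3 to 4, 2 to 3 and 0 to 0. For DSS in wildtype rats the 2 calls became 1 after normexp background correction, 1 with a common floor for dim values, 1 without moderation of the variances, 1 with each combination of slide and row as a block, 0 with only the compared groups, and 1 to 3 with each rat left out (1 without any 1 of rats 14, 17, 18, 22 and 25). Without rat 13 or rat 21 the call of Aqp9 was lost too (limma adjusted p = 0.0604 and 0.0911), so the probes counted there were not the same 2. For Pirc against wildtype rats after DSS the 3 calls became 5 with no minimum change, 5 without rats 12 and 26 together, and 2 to 4 with each rat left out. Without rats 12 and 26 the members called were not the same. Aqp3 lost its call there (1.92, limma adjusted p = 0.154), and Aqp8 (1.965, adjusted p = 0.0386) and Aqp9 (2.13, adjusted p = 0.023) gained one. Over both treatments the 2 calls became 1 after normexp, 1 with the floor, 5 with no minimum change, 1 with a minimum of a factor of 4, 1 with probes of a gene averaged, 4 without rats 12 and 26, and 2 to 3 with each rat left out. The 1 call for the difference between DSS effects became 0 after normexp, 0 with the floor, 0 without moderation, 0 with probes averaged, and 0 to 1 with each rat left out (0 without any 1 of rats 11, 17 and 25). The cause was not tested. The change of Aqp8 with DSS over both genotypes, -0.02 (adjusted p = 0.987), took the other sign after normexp (0.034), with arrays scaled to the median of spots above background (0.042), and within the range -0.40 to 0.27 with each rat left out. Scaling to that median, leaving out rats 12 and 26, and the block of slide and row were added after seeing the data. Under normexp the median change over all probes was 0.18 for DSS in Pirc rats and -0.17 between the genotypes after DSS, against 0.04 and -0.11. Of 1044 recomputed differences of single probes 972 kept their direction and side of the threshold. Leaving out a rat of a group not compared, or blocking by slide or row, can alter the adjusted p but not the difference itself. The alternatives are therefore not independent checks. No paired analysis was possible because the rat numbers in the labels differ between all groups, so a number pairs no rats; each slide and row held 1 rat of every group, and as a block these positions moved no other aquaporin count by over 1.5 times. Dim probes (Aqp7, Aqp9, Aqp4 A_64_P018751) limit the size of the changes, since signals near background have no order.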
